A study of Mus musculus with 9 samples.

Results

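Transcripts of 10 genes that mark the muscular coat of blood vessels were measured by RNA sequencing in mouse heart tissue after coronary artery ligation. Of these, 7 encode parts of the contractile machinery of smooth muscle (Acta2, Tagln, Myh11, Cnn1, Smtn, Lmod1 and Mylk) and 3 are pericyte genes (Rgs5, Pdgfrb and Abcc9). They were found by symbol among the 53465 genes counted, and all 10 were matched. The hearts came from NOD-SCID mice, an immunodeficient strain that lacks functional T and B lymphocytes. The sham group, with 3 libraries, had surgery without ligation. The ligation group, with 3 libraries, had a coronary artery tied, which stops blood flow to a region of the heart wall. The cells group, with 3 libraries, had the same ligation and also received an implant labelled FOXO3-GE-MPCs. No group received an implant of other cells, so an effect of this kind of cell cannot be told apart from that of implanting any cells. The sampled tissue is named as the border zone of the infarct in all groups, sham included, although a sham heart has no infarct. Age, sex and the time between surgery and sampling are not given in the sources used here. The source field of cells replicates 2 and 3 names FOXO4 and FOXO5 where their titles and treatment fields name FOXO3, and the latter were followed.

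Smooth muscle cells wrap arteries and arterioles and set their width by contracting, while pericytes sit on capillaries inside the basement membrane shared with the endothelium. Contraction starts when calcium and calmodulin activate myosin light chain kinase, which phosphorylates myosin so that it pulls on actin filaments. The genes of this machinery are switched on by serum response factor (SRF) with its partner myocardin, through a promoter sequence called the CArG box. Pericytes are drawn to and kept on vessels by platelet-derived growth factor B from endothelial cells, which acts on the receptor encoded by Pdgfrb. After infarction, activated fibroblasts called myofibroblasts also make the smooth muscle actin encoded by Acta2.

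After ligation, 4 contractile genes (Acta2, Myh11, Smtn and Mylk) fell by 24.1% to 27.6%, and the pericyte genes Rgs5 and Abcc9 fell by 32.0% and 32.4%. Among all 13825 genes tested, 18.0% fell and 20.1% rose in that comparison. Differences in Pdgfrb, Cnn1 and Lmod1 did not pass the test, and Tagln had too few counts to be tested. In ligated hearts with implanted cells, those 4 contractile genes were 17.6% to 23.6% below sham and Rgs5 and Abcc9 33.9% and 33.6% below it, where 20.0% of all genes were lower and 21.0% higher. Against ligation alone, Acta2 was 11.3% higher with implanted cells, a difference that rested on the processing, and no other of the 9 tested genes passed the threshold, where 4.19% of all genes were higher and 5.69% lower. The tests were those of edgeR on counts, two-sided, and a gene was called at an adjusted p under 0.05.

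Libraries held 4549268 to 7515052 reads counted to genes. Levels are given as CPM, which are counts brought to a common library size, here with TMM factors that correct for a few abundant genes taking up unequal shares of a library, and 3 counts were worth 0.375 to 0.639 CPM. Errors are SDs over 3 libraries. Nothing in the labels says that libraries of a group came from separate animals, so p-values measure the spread between these libraries, which may be technical. File headers of sham replicates 1 and 2 share a name stem, as do those of ligation replicates 2 and 3, but both pairs differed by more than sampling noise and all libraries were kept. With scaling to library totals alone the median gene moved to a log2 fold change of 0.20 for ligation against sham and of 0.15 for cells against sham, from 0.01 and -0.01 with TMM factors. Shares of all genes called are given with TMM factors only. Counts called under library totals alone therefore have no share to be read against. In whole tissue, fewer cells of a type and less RNA per cell cannot be told apart.

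Per kilobase of exon, which allows genes to be compared, Rgs5 was the most abundant in sham at 194 ± 2.03 CPM per kb. It was followed by Acta2 at 148 ± 4.39 CPM per kb. A middle tier held Smtn at 33.2 CPM per kb, Myh11 at 27.3, Abcc9 at 21.9 and Pdgfrb at 18.8. The lowest were Mylk at 8.83 CPM per kb, Cnn1 at 7.25 and Lmod1 at 4.32. Tagln, at 0.707 CPM per kb, is given no place in the order, since most of its exonic bases lie under other genes. In sham no neighbours among the 9 others overlapped in their libraries. After ligation Pdgfrb (19.0 CPM per kb) stood above Abcc9 (14.8) and overlapped Myh11 (19.7), and Cnn1 (7.17) overlapped Mylk (6.45). In the cells group the order was that of ligation, and no neighbours overlapped.

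**Figure D1:**
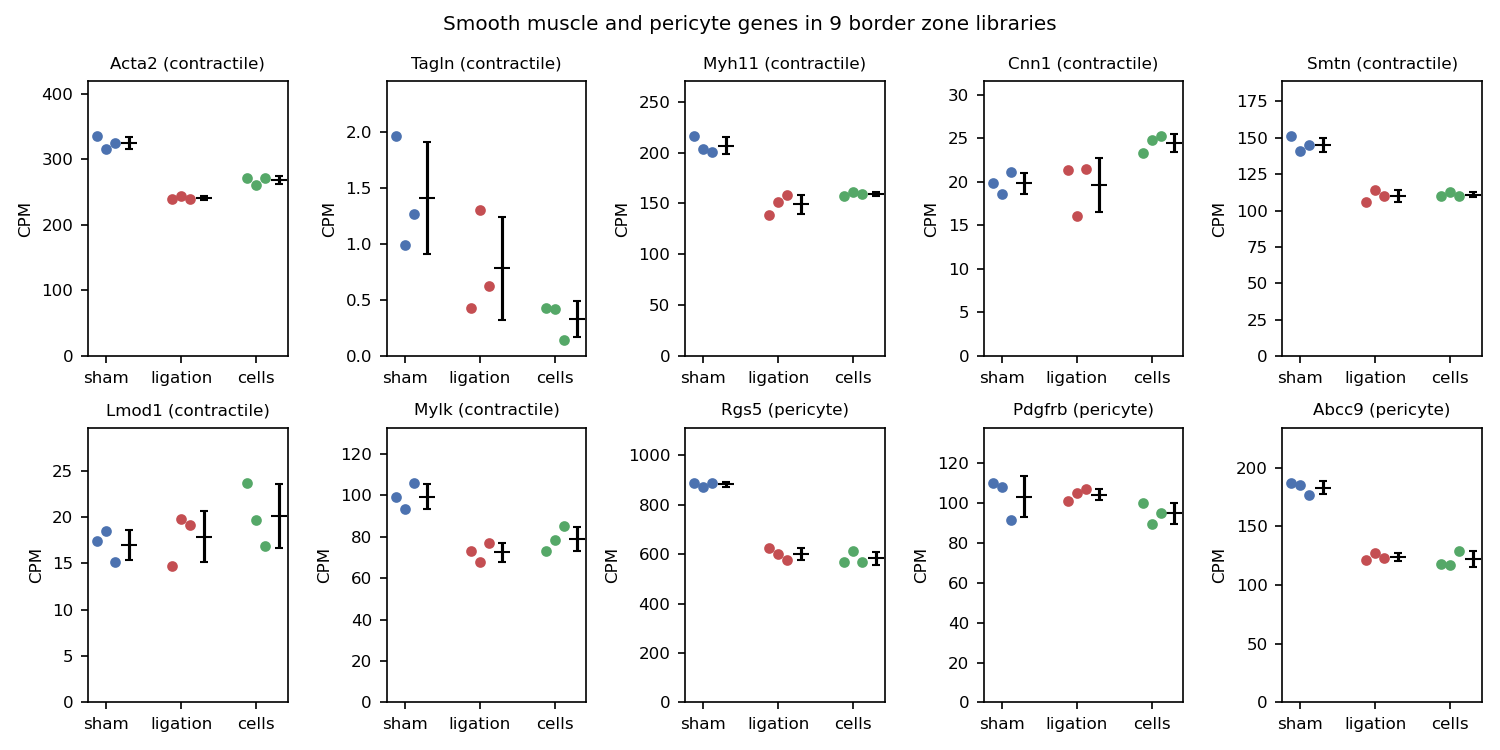
CPM of each of the 10 genes (y axes, starting at 0) in each library of the sham, ligation and cells groups (points), with the mean and SD over 3 libraries beside them (bars). Rgs5, Abcc9, Acta2, Myh11, Smtn and Mylk sit higher in every sham library than in any other, Pdgfrb lies at 89.2 to 110 CPM throughout, and the Tagln panel rests on 1 to 11 counts.

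Acta2 (ENSMUSG00000035783, chr19:34241090-34255590, minus strand, mm10) encodes smooth muscle alpha-actin, the thin-filament actin of vascular smooth muscle and of myofibroblasts. Its level was 335, 315 and 325 CPM in the sham libraries, 239, 244 and 239 CPM after ligation, and 271, 261 and 272 CPM with implanted cells. The 3 groups did not overlap, with the cells group between the other two. Relative to sham, Acta2 fell by 25.9% after ligation (log2 fold change -0.43, SE 0.047, adjusted p = 2.76e-07, edgeR) and by 17.6% with implanted cells (log2 fold change -0.28, SE 0.0467, adjusted p = 6.5e-05). Relative to ligation alone it was 11.3% higher with implanted cells (log2 fold change 0.15, 95% interval 0.06 to 0.25, adjusted p = 0.0422, edgeR). That last call did not hold in 11 of 19 alternative analyses, in which adjusted p ranged from 0.0255 to 0.139 while the log2 fold change stayed between 0.125 and 0.172. It was lost without any 1 of the 3 ligation libraries (adjusted p of 0.0846, 0.104 and 0.107 without replicates 1, 2 and 3) or of the 3 cells libraries (0.132, 0.0547 and 0.139), and also without sham replicate 1 (0.051).

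The sequence just before the Acta2 start site was searched for CArG boxes, since these are the elements through which SRF acts on contractile genes, and is shown beside promoters of Srf and of 2 other muscle actins. The motif searched was CC, then 6 bases each A or T, then GG, which reads as the same pattern on both strands. The windows were RefSeq promoters of build GRCm38.p6, from 250 bases before to 50 after each start site. A window was found for 5 of the 7 contractile and 2 of the 3 pericyte genes. An exact box was in 1.63% of all 32851 windows, and in 9.98% when 1 core base could be other than A or T. Acta2 alone among the 7 genes with a window had boxes, and both had 1 other base in the core. Acta1, the skeletal muscle actin, Actc1, the cardiac actin, and Srf itself were picked to be shown, and each had at least 1 exact box. Among listed genes with a window, so did 4 of 18 other contractile genes and 3 of 11 regulators, Srf included. An exact box was also in 1 of 4 platelet-derived growth factor genes and in the actin gene Actg1. Boxes with 1 other core base at -205 and -154 of Acta1 and at -138 and -87 of Actc1 are not printed. The boxes are in capitals with 10 bases on either side, 5′ to 3′ on the strand of the gene, which is the minus strand for all.
Acta2 at -84 (chr19:34255438-34255467): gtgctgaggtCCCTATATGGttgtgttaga
Acta2 at -34 (chr19:34255388-34255417): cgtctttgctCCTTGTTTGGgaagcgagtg
Acta1 at -73, exact (chr8:123894829-123894858): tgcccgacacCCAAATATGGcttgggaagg
Actc1 at -47, exact (chr2:114052903-114052932): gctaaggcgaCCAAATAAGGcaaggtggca
Actc1 at -175 (chr2:114053031-114053060): ctccctagctCCCTATATGGccattgctct
Srf at -82, exact (chr17:46556225-46556254): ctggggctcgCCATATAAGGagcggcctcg
Srf at -62, exact (chr17:46556205-46556234): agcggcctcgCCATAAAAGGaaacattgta
The box of Acta2 at -84 and that of Actc1 at -175 are the same 10 letters. Positions are counted from the RefSeq start site to the first base of the box. Both Acta2 boxes lie in the first exon of a longer GENCODE transcript, Acta2-201, which starts further upstream. A match is a run of letters and no evidence of binding, which was not measured.

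Among the genes shown with boxes, Acta1 and Srf rose after ligation where Acta2 fell. The other actins are given beside them, though no promoter window was found for Actb and Actg2. Acta1 stood at 907, 972 and 964 CPM in sham, at 1210, 1257 and 1308 CPM after ligation, and at 1846, 1854 and 1815 CPM with implanted cells. It thus rose where Acta2 fell, by 32.8% after ligation (adjusted p = 4.3e-08, edgeR), and was a further 46.1% higher with implanted cells than with ligation alone (adjusted p = 4.1e-09). Actc1 was 6.32% lower after ligation (log2 fold change -0.09, adjusted p = 0.0142, edgeR). With library totals alone it was higher by 0.09, where the median gene stood at 0.20. Its sign thus rests on the scaling, while it lay below the median gene under both. Without sham replicate 2 it did not pass (adjusted p = 0.105). The cytoplasmic actin gene Actb did not pass after ligation (log2 fold change -0.07, -0.16 to 0.01). It passed as higher with library totals alone (0.114, adjusted p = 0.0166, edgeR), but below the median gene under that scaling. With implanted cells it was 11.2% lower than with ligation alone (adjusted p = 0.00671, edgeR) and 15.6% lower than in sham (adjusted p = 4.31e-05), the latter lost with library totals alone (adjusted p = 0.0667). Actg1 and the enteric actin gene Actg2 passed in no comparison. Actg1 did pass after ligation and for cells against ligation with no filter on low counts and without ligation replicate 3 (log2 fold changes down to -0.427 and up to 0.47), and for cells against ligation also with shared header stems summed. Actg2 passed for cells against sham with library totals alone (adjusted p = 0.021). Srf, the factor that binds the box, was at 107, 116 and 96.2 CPM in sham, 126, 137 and 139 CPM after ligation, and 149, 167 and 164 CPM with implanted cells. It rose by 25.7% after ligation (adjusted p = 0.000969, edgeR) and was 19.5% higher with implanted cells than with ligation alone (adjusted p = 0.0203), with no overlap of the groups. The latter call was lost without ligation replicates 1 or 2 or cells replicates 2 or 3 (adjusted p up to 0.0876). Its partner gene Myocd passed in no comparison, with a log2 fold change of 0.23 after ligation (95% interval -0.09 to 0.55) that ranged from 0.066 to 0.359 when 1 library was left out. With library totals alone it passed (0.424, adjusted p = 0.0312).

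Myh11 (ENSMUSG00000018830, chr16:14194535-14291372, minus strand) encodes the smooth muscle myosin heavy chain, the motor protein and the most specific marker of the lineage. Its level was 216, 204 and 201 CPM in sham, 139, 151 and 158 CPM after ligation and 157, 161 and 159 CPM with implanted cells. Every sham library was above every other library, while the ligation and cells libraries overlapped. Myh11 fell by 27.6% after ligation (log2 fold change -0.47, SE 0.0573, adjusted p = 1.48e-06, edgeR) and was 23.2% below sham with implanted cells (adjusted p = 1.7e-05). Between cells and ligation its log2 fold change was 0.09 (95% interval -0.03 to 0.21, adjusted p = 0.415, edgeR).

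Smtn (ENSMUSG00000020439, chr11:3517523-3540612, minus strand) encodes smoothelin, a cytoskeletal protein of contractile smooth muscle. It stood at 151, 141 and 145 CPM in sham, 106, 114 and 110 CPM after ligation and 110, 113 and 110 CPM with implanted cells. The latter groups lay on top of each other and below sham. The fall was 24.1% after ligation (log2 fold change -0.40, SE 0.0573, adjusted p = 1.18e-05, edgeR) and 23.6% with implanted cells against sham (adjusted p = 1.33e-05). Between cells and ligation the log2 fold change was 0.01 (95% interval -0.11 to 0.13). Exons of other genes cover 16.3% of Smtn's exonic bases, and reads there cannot be assigned if the strand was not used in counting.

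Mylk (ENSMUSG00000022836, chr16:34745210-35002420, plus strand) encodes myosin light chain kinase, the enzyme that starts contraction. It measured 99.1, 93.4 and 106 CPM in sham, 73.3, 67.7 and 76.9 CPM after ligation and 73.2, 78.4 and 85.0 CPM with implanted cells. Sham libraries were again the highest, and the other groups overlapped. Mylk fell by 26.9% after ligation (log2 fold change -0.45, SE 0.0735, adjusted p = 5.01e-05, edgeR) and was 20.7% below sham with implanted cells (adjusted p = 0.000875), the latter a call lost with library totals alone (adjusted p = 0.0568). Between cells and ligation its log2 fold change was 0.12 (95% interval -0.04 to 0.27, adjusted p = 0.376, edgeR).

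The remaining contractile genes were among the scarcest and did not follow that pattern. Cnn1 (ENSMUSG00000001349, chr9:22099216-22109630, plus strand) encodes calponin, an actin-binding brake on myosin. It stood at 19.8, 18.6 and 21.1 CPM in sham, 21.3, 16.1 and 21.5 CPM after ligation and 23.3, 24.8 and 25.2 CPM with implanted cells. Sham and ligation overlapped, with a log2 fold change of -0.02 (95% interval -0.29 to 0.24) whose sign turned with library totals and without 1 library. All 3 cells libraries were above the other 6, yet the difference missed the threshold against ligation (log2 fold change 0.32, interval 0.07 to 0.57, adjusted p = 0.105, edgeR) and against sham (0.30, 0.05 to 0.55, adjusted p = 0.0547). These intervals are not adjusted for the number of genes. The difference from sham passed with library totals alone (adjusted p = 0.00424), in a fit of these groups only (0.0374) and without ligation replicate 2 (0.0358).

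Lmod1 (ENSMUSG00000048096, chr1:135324807-135368065, plus strand) encodes leiomodin, which seeds new actin filaments in smooth muscle. It measured 17.4, 18.5 and 15.2 CPM in sham, 14.7, 19.8 and 19.1 CPM after ligation and 23.7, 19.7 and 16.9 CPM with implanted cells. All groups overlapped. The log2 fold change was 0.09 after ligation (95% interval -0.22 to 0.40), 0.15 for cells against ligation (-0.15 to 0.44) and 0.24 for cells against sham (-0.06 to 0.54). The interval after ligation, like that of Cnn1, does not reach the -0.40 of Smtn, the smallest of the 4 falls.

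Tagln (ENSMUSG00000032085, chr9:45929619-45936058, minus strand) encodes transgelin, an actin-binding protein that is normally among the most abundant of smooth muscle. It had 11, 6 and 8 counts in sham, 2, 9 and 5 after ligation and 3, 3 and 1 with implanted cells, and was removed as too low to test. Exons of other counted genes cover 67.9% of its exonic bases, 1241 of them under the antisense gene Gm48529 on the plus strand and 108 under Pcsk7. Of its main transcript, Tagln-201, 61.8% of the bases are covered. Where a counter does not use strand, reads over such bases cannot be assigned to either gene, and 8.09% to 8.72% of the reads in these libraries were set aside as ambiguous. Gm48529 itself held 0 to 5 counts a library. The values are therefore no measure of the level of Tagln, and no fold is given.

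Of the 6 contractile genes tested, 4 fell after ligation and 0 rose, where 18.0% of all genes fell and 20.1% rose. The count of 0 was also 0 at an unadjusted p under 0.05 and with DESeq2 and limma-voom. Their median log2 fold change was -0.42, against 0.01 over all genes tested. With library totals alone, where the median gene stood at 0.20, the falls passed but were smaller, with log2 fold changes of -0.245 for Acta2, -0.278 for Myh11, -0.209 for Smtn and -0.264 for Mylk. For cells against ligation, 1 was higher (Acta2) and 0 were lower, where 4.19% of all genes were higher and 5.69% lower. The median was 0.13 against 0.00 over all genes. At an unadjusted p under 0.05, Acta2 and Cnn1 were higher and 0 were lower, by edgeR, DESeq2 and limma-voom alike. For cells against sham, 4 were lower and 0 higher, where 20.0% of all genes were lower and 21.0% higher. The median was -0.31 against -0.01 over all genes. There 1 was higher at an unadjusted p under 0.05 by edgeR and limma-voom and 0 by DESeq2. The first 2 comparisons share the ligation libraries, so an error in those libraries enters both with opposite signs.

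**Figure D2:**
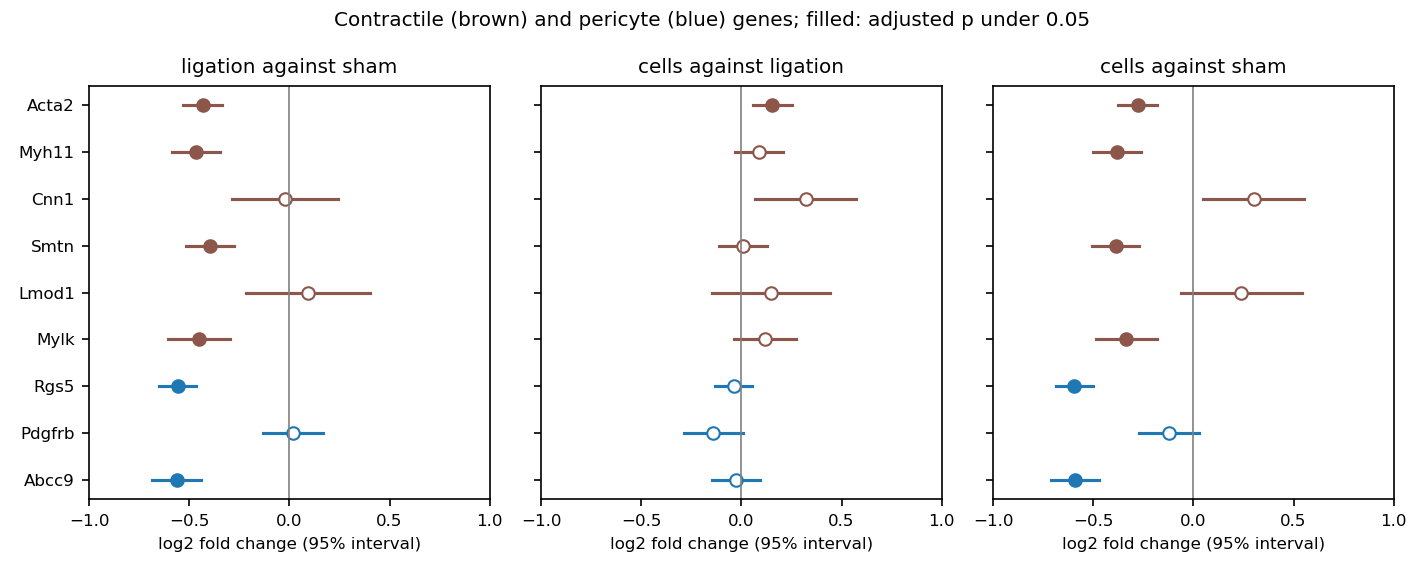
Log2 fold change with its 95% interval (x axes) for each tested contractile gene (brown) and pericyte gene (blue) in the 3 comparisons, with filled points for an adjusted p under 0.05. Acta2, Myh11, Smtn, Mylk, Rgs5 and Abcc9 are filled left of 0 in both comparisons with sham, and Acta2 is the 1 filled point for cells against ligation.

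Rgs5 (ENSMUSG00000026678, chr1:169655501-169695813, plus strand) encodes a brake on G-protein signalling that is a standard marker of pericytes. Its level was 886, 871 and 888 CPM in sham, 623, 601 and 575 CPM after ligation and 567, 614 and 569 CPM with implanted cells. The sham libraries stood far above the rest, which overlapped. Rgs5 fell by 32.0% after ligation (log2 fold change -0.56, SE 0.0442, adjusted p = 2.66e-09, edgeR) and was 33.9% below sham with implanted cells (adjusted p = 8.39e-10). Between cells and ligation its log2 fold change was -0.04, with a 95% interval of -0.13 to 0.05 (adjusted p = 0.665, edgeR), which holds no change as large as the 0.15 of Acta2.

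Abcc9 (ENSMUSG00000030249, chr6:142587862-142702315, minus strand) encodes the sulfonylurea receptor subunit of ATP-sensitive potassium channels, found in pericytes and vascular smooth muscle and, as another splice form, in heart muscle cells. It stood at 187, 185 and 177 CPM in sham, 121, 127 and 123 CPM after ligation and 118, 117 and 129 CPM with implanted cells. As with Rgs5, sham was apart and the other groups overlapped. Abcc9 fell by 32.4% after ligation (log2 fold change -0.56, SE 0.0577, adjusted p = 1.16e-07, edgeR) and was 33.6% below sham with implanted cells (adjusted p = 5.26e-08). Between cells and ligation the log2 fold change was -0.03 (95% interval -0.15 to 0.10).

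Pdgfrb (ENSMUSG00000024620, chr18:61045150-61085061, plus strand) encodes the beta receptor for platelet-derived growth factor, carried by pericytes, smooth muscle cells and fibroblasts. It measured 110, 108 and 91.4 CPM in sham, 101, 105 and 107 CPM after ligation and 99.9, 89.2 and 95.1 CPM with implanted cells. Sham spanned the ligation libraries, and the cells libraries were all below those of ligation. After ligation its log2 fold change was 0.02, with a 95% interval of -0.13 to 0.17 (adjusted p = 0.874, edgeR). That interval holds no fall as large as those of Rgs5 and Abcc9. The log2 fold change was -0.14 for cells against ligation (-0.29 to 0.01, adjusted p = 0.253, edgeR) and -0.12 for cells against sham (-0.27 to 0.03, adjusted p = 0.185). The lowest sham library, replicate 3, mattered: without it Pdgfrb was lower with implanted cells than in sham (log2 fold change -0.20, adjusted p = 0.0266, edgeR). With library totals alone it was higher after ligation (log2 fold change 0.21, adjusted p = 0.0268), close to the shift of the median gene under that scaling.

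Of the 3 pericyte genes, 2 fell after ligation and 0 rose, where 18.0% of all genes fell and 20.1% rose, with a median log2 fold change of -0.56 (with library totals alone, -0.370 for Rgs5 and -0.376 for Abcc9), and 2 were lower than sham with implanted cells and 0 higher, where 20.0% of all genes were lower and 21.0% higher, with a median of -0.59. For cells against ligation 0 differed in either direction by edgeR, where 5.69% of all genes were lower and 4.19% higher, also at an unadjusted p under 0.05 and with DESeq2 and limma-voom, and the median was -0.04. At a stricter rule that also asked for a change of at least 1.5-fold, none of the 4 contractile genes and neither pericyte gene passed after ligation. Both pericyte genes passed for cells against sham, but they lay close to that limit in both comparisons. Their log2 fold changes were -0.557 after ligation and -0.596 for cells against sham for Rgs5, and -0.564 and -0.591 for Abcc9. The share of all genes passing this rule is not given.

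Ratios of raw counts within a library need no scaling between libraries. For 1 count of Rgs5 there were 0.124, 0.124 and 0.103 counts of Pdgfrb in the sham libraries, 0.162, 0.174 and 0.186 after ligation, and 0.176, 0.145 and 0.167 with implanted cells. Sham was below both other groups without overlap. Between the contractile and pericyte leaders, Rgs5 counts per Acta2 count were 2.65 to 2.76 in sham, 2.40 to 2.60 after ligation and 2.09 to 2.35 with implanted cells. No groups overlapped in that ratio, which was lowest with implanted cells. Abcc9 and Kcnj8 encode partner subunits of the same channel, yet Abcc9 counts per Kcnj8 count were 2.54 ± 0.05 in sham, 3.05 ± 0.136 after ligation and 3.75 ± 0.323 with implanted cells. The pore subunit gene Kcnj8 fell by 43.5% after ligation, where Abcc9 fell by 32.4%. Acta1 counts per Acta2 count were 2.92 ± 0.189, 5.23 ± 0.213 and 6.86 ± 0.214 in the same order. Where groups did not overlap, the exact permutation test gave a two-sided p of 0.1, the smallest that 3 libraries against 3 allow. Of 6 ratios computed, adjusted over all 18 tests, none came below an adjusted p of 0.129.

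**Figure D3:**
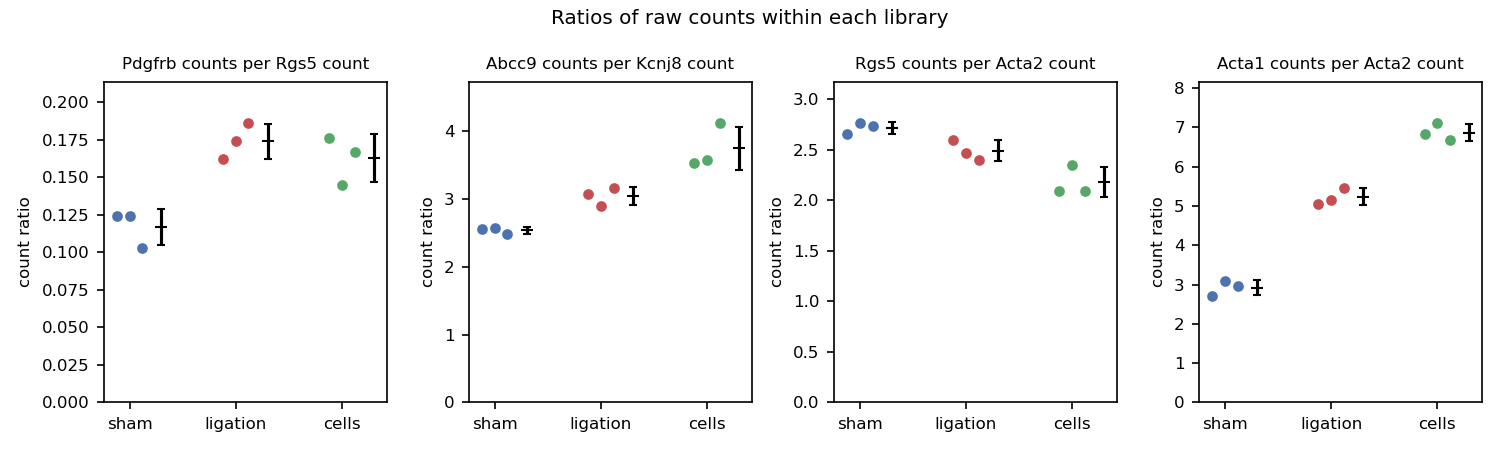
Ratios of raw counts within each library (y axes, starting at 0) in the sham, ligation and cells groups, with the mean and SD over 3 libraries beside the points. Pdgfrb per Rgs5 is lower in each sham library than in any other, Rgs5 per Acta2 is lowest with implanted cells, and Abcc9 per Kcnj8 and Acta1 per Acta2 are higher after ligation and higher again with implanted cells.

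Other genes of the contractile apparatus did not move as one. Of 22 listed and tested, 10 rose, 3 fell and 9 did not pass after ligation, and their median log2 fold change was 0.16, where 20.1% of all genes rose and 18.0% fell. With library totals alone 16 were higher and 2 lower, but the median gene itself stood at 0.20 under that scaling, to which those shares do not apply. Those that fell included Tpm2, a smooth muscle tropomyosin, by 28.5% (adjusted p = 7.03e-06, edgeR), and Ppp1r14a, an inhibitor of the phosphatase that reverses contraction (log2 fold change -0.60, adjusted p = 0.00267). Those that rose included Des, the muscle intermediate filament desmin (log2 fold change 0.87, adjusted p = 5.73e-15, edgeR), and Ppp1r12b, a myosin phosphatase subunit (0.56, adjusted p = 4.84e-08). Desmin is also a major protein of heart muscle cells, as are several others of this list. With implanted cells, 3 were higher and 2 lower than with ligation alone, where 4.19% of all genes were higher and 5.69% lower. The split was 0 and 2 with library totals alone, and 1 and 2 with DESeq2. Tpm2, which like Acta2 fell after ligation, was 16.4% higher (adjusted p = 0.0423, edgeR), a call lost in 11 of 19 alternatives, among them DESeq2, library totals alone and fits without sham replicate 1, ligation replicates 2 or 3 or any 1 cells library (adjusted p up to 0.182). In that comparison Des was 13.4% lower (adjusted p = 6.89e-05). Vcl, the adhesion protein vinculin, was 26.7% higher (adjusted p = 0.0278), but exons of another gene cover 25.5% of its exonic bases, and the call was lost with library totals alone, with DESeq2 and without ligation replicates 1 or 2 or cells replicates 2 or 3 (adjusted p up to 0.117).

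Among 16 regulators of the contractile genes, 9 rose and 4 fell after ligation, with a median log2 fold change of 0.36, where 20.1% of all genes rose and 18.0% fell. The split was 12 and 1 with library totals alone, where the median gene stood at 0.20, and 9 and 2 with DESeq2. Klf5, a factor that drives smooth muscle growth, rose (adjusted p = 0.00372, edgeR) from 2, 1 and 4 counts in sham to 9, 12 and 13 after ligation, too few for its fold to be read. Mrtfa, a coactivator of SRF, rose by 65.9% (adjusted p = 0.000634). Klf4, which represses contractile genes in smooth muscle, fell by 17.6% (adjusted p = 0.00227, edgeR). Fhl2, a cofactor of SRF abundant in heart muscle, also fell (log2 fold change -0.91, adjusted p = 3.66e-13). With library totals alone Fhl2 was the 1 regulator called lower (-0.721), so the fall of Klf4 lost its call there. With implanted cells, Klf4 was 59.1% higher than with ligation alone (adjusted p = 4.43e-07, edgeR) and Mrtfa 32.6% lower (adjusted p = 0.0139). In that comparison 3 of the 16 were higher and 1 was lower, where 4.19% of all genes were higher and 5.69% lower. The split was 2 and 2 with library totals alone, and 3 and 0 with DESeq2. The call of Mrtfa was lost with DESeq2 and without ligation replicate 3 or cells replicate 2 (adjusted p up to 0.141).

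Of 18 other pericyte genes, 7 fell, 5 rose and 6 did not pass after ligation, with a median log2 fold change of -0.20, where 18.0% of all genes fell and 20.1% rose. With library totals alone, where the median gene stood at 0.20, 7 were higher and 4 lower. No share of all genes called is given for that scaling, so no direction of the list is read from the splits. Kcnj8, the pore subunit of the channel that Abcc9 belongs to, stood at 73.1, 71.5 and 71.3 CPM in sham, 39.4, 43.8 and 38.6 CPM after ligation and 33.3, 32.7 and 31.4 CPM with implanted cells. The 3 groups did not overlap. It fell by 43.5% after ligation (log2 fold change -0.82, SE 0.0738, adjusted p = 1.73e-08, edgeR) and was a further 20.1% lower with implanted cells than with ligation alone (adjusted p = 0.0106), a call lost with DESeq2 and without ligation replicate 2 (adjusted p up to 0.0801). Cox4i2, a respiratory chain subunit typical of pericytes, fell by 1.20 on the log2 scale (adjusted p = 3.25e-05, edgeR) and Vtn, which encodes vitronectin, by 0.89 (adjusted p = 8.61e-07). Anpep, a membrane peptidase of pericytes and of some immune cells, rose by 72.5% after ligation (adjusted p = 1.17e-05, edgeR) and was 24.3% lower with implanted cells (adjusted p = 0.0188), the latter lost with DESeq2 and without ligation replicates 2 or 3 or cells replicate 2 (adjusted p up to 0.0966). Notch3, the Notch receptor of mural cells, was 14.7% higher after ligation (log2 fold change 0.20, adjusted p = 0.0455, edgeR), but the call was lost in 12 of 19 alternatives, among them fits without sham replicates 1 or 3, ligation replicates 2 or 3 or cells replicates 1 or 3. The log2 fold change was 0.12 without ligation replicate 3 (adjusted p = 0.308). Notch3 was 17.9% lower with implanted cells than with ligation alone (adjusted p = 0.0179, edgeR), a call lost without ligation replicates 2 or 3 or cells replicate 2 and with shared header stems summed (adjusted p up to 0.131). With implanted cells 5 of the 18 were lower than with ligation alone and 0 were higher by edgeR, where 5.69% of all genes were lower and 4.19% higher, but 1 was lower with DESeq2.

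The genes of the growth factor that recruits pericytes were read beside its receptor. Pdgfb, the endothelial ligand of the receptor encoded by Pdgfrb, was at 136, 136 and 130 CPM in sham, 74.4, 82.2 and 87.6 CPM after ligation and 89.5, 72.4 and 81.7 CPM with implanted cells. Sham was apart from the other groups, which overlapped. Pdgfb fell by 38.8% after ligation (log2 fold change -0.71, SE 0.0755, adjusted p = 2.06e-07, edgeR), where Pdgfrb had a log2 fold change of 0.02. Of the 6 genes of the family listed, 2 rose after ligation (Pdgfrl, a receptor-like protein, and Pdgfc, a ligand of the alpha receptor) and 2 fell (Pdgfb and Pdgfra, the alpha receptor of fibroblasts), near the 20.1% and 18.0% of all genes given the small list. The call of Pdgfra (adjusted p = 0.049, edgeR) was lost in 12 of 19 alternatives, among them DESeq2, limma-voom and fits without sham replicates 1 or 3, ligation replicates 2 or 3 or cells replicate 2 (adjusted p up to 0.892). For cells against ligation 0 of the 6 passed by edgeR, where 4.19% of all genes were higher and 5.69% lower.

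Markers of other cell types moved in the same libraries, and their part in the results above was not tested. After ligation 18.0% of all genes fell and 20.1% rose, and for cells against ligation 5.69% were lower and 4.19% higher. Endothelial markers fell in 8 of 8 after ligation (median log2 fold change -0.55), their summed level being 2112 to 2238 CPM in sham, 1406 to 1482 after ligation and 1530 to 1580 with implanted cells. For cells against ligation, in which Acta2 was 11.3% higher, 2 of the 8 were higher and 0 lower: Kdr, the main receptor for vascular endothelial growth factor, by 17.7% (adjusted p = 0.00225, edgeR), and Tek, the angiopoietin receptor, by 18.1% (adjusted p = 0.0183). The call of Tek was lost without ligation replicate 3 or cells replicates 1 or 2 (adjusted p up to 0.109). The medians of the 3 pericyte and 6 tested contractile genes after ligation were -0.56 and -0.42. For Pecam1, an endothelial adhesion protein, Acta2 counts per Pecam1 count were 0.721 to 0.826 in sham and 0.697 to 0.748 after ligation, which overlapped, and 0.783 to 0.791 with implanted cells. Rgs5 counts per Pecam1 count were 1.99 to 2.19 in sham and 1.67 to 1.95 after ligation, which did not overlap. This rests on the marker chosen, since Pecam1 fell by 22.0% where Rgs5 fell by 32.0%. Kdr, Egfl7, Tek and Tie1 fell by more than Rgs5 (35.2% to 46.2%). The other endothelial markers, Pecam1 among them, fell by less (21.7% to 28.1%). Ratios to markers other than Pecam1 are not given. Fibroblast and myofibroblast markers rose in 11 of 14 and fell in 1, the Pdgfra of the weak call above (median 1.61), with a summed level of 2037 to 2095 CPM in sham, 4219 to 4355 after ligation and 3953 to 4042 with implanted cells. Postn, which encodes periostin of activated fibroblasts, rose by 2.34 on the log2 scale (adjusted p = 4.27e-17, edgeR), in the same libraries in which Acta2, also a myofibroblast gene, fell by 0.43. Cardiomyocyte markers fell in 5 of 7 and rose in 1 (median -0.35). With library totals alone, where the median gene stood at 0.20, 4 fell and 3 rose. The summed levels of these markers were 45608 to 47035 CPM in sham, 34843 to 36622 after ligation and 34040 to 34867 with implanted cells. Macrophage markers rose in 6 of 6 after ligation (median 0.73) and were lower in 6 of 6 with implanted cells than with ligation alone (median -1.37), at 495 to 544 CPM in sham, 977 to 1001 after ligation and 397 to 415 with implanted cells. No listed marker was at 0 in all libraries.

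**Figure D4:**
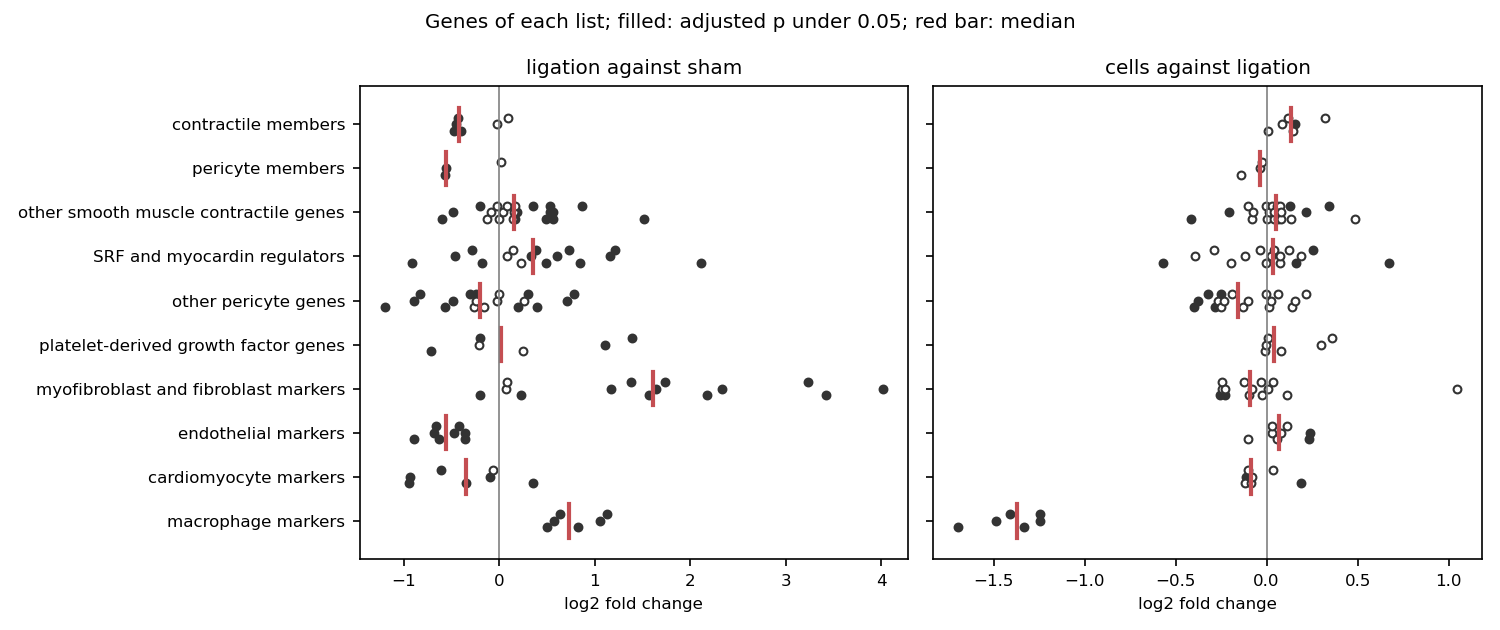
Log2 fold change (x axes) of each gene of 10 lists in the ligation comparison with sham (left) and the comparison of cells with ligation (right), with filled points for an adjusted p under 0.05 and a red bar at the median of the list. After ligation the medians of the contractile genes, the pericyte genes and the endothelial and cardiomyocyte markers lie left of 0 while those of fibroblast and macrophage markers lie right of it, and for cells against ligation the macrophage markers alone lie wholly below -1.

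Across the 9 libraries the genes that fell after ligation followed each other, as description only, since the libraries form 3 groups and share their scaling. Pearson's r of log2 CPM was 0.953 for Acta2 and Myh11, 0.972 for Myh11 and Smtn, 0.966 for Rgs5 and Abcc9 and 0.974 for Smtn and Abcc9. The other pairs of a contractile gene that fell with Rgs5 or Abcc9 ranged from 0.865 for Mylk and Rgs5 to 0.971 for Smtn and Rgs5. Pdgfrb had an r of 0.198 with Rgs5 and of 0.310 with Abcc9, and Cnn1 had -0.085 with Acta2. Among 11146 genes with a mean of at least 5 CPM, those most like Acta2 over the 9 libraries were Fkbp4, Itpkb and Ablim1 (r of 0.989 each) and Mylk4 (0.988). Those most like Myh11 were Acot2 (0.993), Rpl17-ps10 (0.989, a pseudogene whose reads may stem from near-identical copies), Glrx5 and Rex1bd (0.987 each). The genes most like Rgs5 were Tnni3, a cardiomyocyte troponin (0.999), Cox4i1, Ndufv3 and Atp5o, which encode mitochondrial proteins (0.998 each), so none of its nearest was a pericyte gene of the lists. For Pdgfrb they were Keap1 (0.961), Plscr3 (0.945), Selenom (0.934) and Rpa2 (0.921).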

How the data were processed

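RNA of 9 libraries was measured by the submitters, who used TRIzol for extraction and the NEBNext Ultra RNA kit for library preparation, per the labels' protocols. Each deposited file holds raw counts of reads by gene, without normalization, and mm10 is the build in the submitters' processing notes. The aligner, counter, strand setting and annotation release are not given in the sources used here, and the last 5 lines of each file carry names that htseq-count writes. Genes with overlapping exons are therefore uncertain.

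Symbols, exon lengths and coordinates came from GENCODE (GRCm38, the assembly of mm10), matching 53274 of 53465 gene IDs. Counts were fitted in R 4.3.3 with edgeR 4.0.16 (filterByExpr, TMM factors, glmQLFit, glmQLFTest) on the 9 libraries together, each group having its own mean, with 6 residual degrees of freedom. P-values were adjusted with the Benjamini-Hochberg method over 13825 genes tested. CPM were computed with the TMM factors. SEs were derived from the log2 fold change and its quasi-likelihood F statistic, and 95% intervals are from the SE. Correlations used log2 of CPM plus 0.5. The fit was tested on simulated data.

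The members, lists and alternatives were chosen with earlier results of these data known. Named are the 10 genes, 5 regulators and mural genes (Myocd, Srf, Pdgfb, Notch3 and Kcnj8), 5 other actins, up to 4 genes a list and comparison with the largest change among those past an adjusted p of 0.05 at 1 CPM or more, and the 4 genes most like each of Acta2, Myh11, Rgs5 and Pdgfrb. Pecam1 and Mrtfa, Tpm2 and Klf4 outside the comparisons for which the rule chose them were named after their values were seen. A result that the rule gave is not reported here. The alternatives were other scalings and filters, DESeq2 1.42.0, limma-voom (limma 3.58.1), fits of the groups compared, a replicate block, removal of mitochondrially encoded genes, a fold rule, leaving out each library and summing libraries whose headers share a stem, the last chosen after seeing the data. Figures were drawn with matplotlib 3.10.9.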

Additional observations from a re-analysis of the deposited data

How the results depend on the processing

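For the 9 tested genes in 3 comparisons, 19 alternatives gave 513 values, of which 485 kept their direction and their side of the threshold, 12 lost the call, 7 gained it and 9 changed sign. The falls of Acta2, Myh11, Smtn, Mylk, Rgs5 and Abcc9 after ligation passed in all 19, with smaller sizes under library totals alone. A rule that also asked for a 1.5-fold change called 0 contractile genes in any comparison. It called 0 pericyte genes after ligation and 2 for cells against sham, which lay close to the limit in both comparisons. The 1 contractile call for cells against ligation, that of Acta2, became 0 with library totals alone, with no filter on low counts, with the replicate block and with libraries of a shared header stem summed, and was 0 to 1 over the fits that each left out 1 library.

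With library totals alone, signs turned after ligation for Cnn1 (0.169), Actc1 (0.0934), Actg2 (0.0633) and Actb (0.114), for cells against ligation for Smtn (-0.0215), and for cells against sham for Pdgfrb (0.0365), Notch3 (0.0718) and Actc1 (0.102). That scaling itself put the median gene at 0.20 after ligation, at -0.03 for cells against ligation and at 0.15 for cells against sham. Under that scaling Lmod1 passed for cells against sham (0.397, adjusted p = 0.0323, edgeR). Pdgfb was at 0.00991 for cells against ligation with shared stems summed. Over the fits that left out 1 library, Cnn1 ranged from -0.127 to 0.114 and Pdgfrb from -0.0632 to 0.0642 after ligation, and Smtn from -0.0175 to 0.0323, Myocd from -0.164 to 0.117 and Pdgfb from -0.0859 to 0.065 for cells against ligation. Of these, all main values missed the threshold except that of Actc1 after ligation.

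Same-numbered libraries showed little shared deviation (correlations from -0.123 to 0.144). This gives no sign that the numbers pair the samples, but cannot exclude it, since a weak shared effect could give such values. With the replicate block, 4 contractile and 2 pericyte genes were called after ligation, 0 and 0 for cells against ligation (Acta2 at 0.153, adjusted p = 0.0631, edgeR), and 5 and 2 for cells against sham, Cnn1 being added there (adjusted p = 0.0489). At this depth 3 counts were worth up to 0.639 CPM, near the sham level of Klf5.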
